A study of Mus musculus with 6 samples.

Results

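H3K27ac, an acetylated lysine of histone H3 and a mark of active promoters and enhancers, was examined at Pou5f1, the gene that encodes OCT4, before and after OCT4 protein was degraded. All deposited H3K27ac peaks that overlap the Pou5f1 gene or the 10 kb on either side of it (chr17:35496018-35520772, GRCm38) were taken, which gave 5 of the 31131 peaks. The gene had been selected on measured values of the same comparison, because its H3K27ac was less reduced than that of most pluripotency genes. The differences between conditions at Pou5f1 are therefore given as a description, and calls by limma at its 5 peaks are counted only beside those of all peaks.

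The cells were O4AID ESCs, mouse embryonic stem cells of strain 129SV that are Oct4-/- and carry the transgenes TetOFF Oct4, CAG Oct4AID and CAG Tir1. In these cells OCT4 is made from a transgene, driven by the CAG promoter, that fuses it to an auxin-inducible degron (AID), while the Tet-OFF wild-type Oct4 transgene is kept silent with doxycycline. TIR1, the plant receptor that marks degron-tagged proteins for destruction in the presence of auxin, comes from a further CAG transgene. Libraries of 3 immunoprecipitations (IPs) from uninduced cells and 3 from cells given 500 μM IAA (indole-3-acetic acid, an auxin) for 1.5 h were compared, all in N2B27 with PD03, Chiron and LIF and all with doxycycline. Both groups thus carry the null Oct4 alleles and all 3 transgenes, and the labels do not say which bases of the endogenous gene are missing. Reads from the coding sequence of an Oct4 transgene and from the same exons of the endogenous gene cannot be told apart in these files. H3K27ac is given in RPKM, reads scaled to the length of the peak and to the sequencing depth of the library.

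OCT4 is a POU-domain transcription factor that is needed for naive pluripotency and binds DNA together with SOX2 at a composite of an octamer-like and a SOX sequence. The mouse gene is known to be controlled by its promoter and by a proximal and a distal enhancer upstream, of which the distal one is used in naive cells and in the inner cell mass. OCT4 and SOX2 are known to bind the distal enhancer, so the gene is one of its own product's targets.

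The 5 peaks were named by their place, and the names do not equate a peak with one of these enhancers. The distal upstream peak (chr17:35503482-35503892) runs from 2535 to 2126 bp before the annotated start of Pou5f1, and the proximal upstream peak (chr17:35504365-35504890) from 1652 to 1128 bp before it. The promoter peak (chr17:35505638-35506727) spans the start, from -379 to 709 bp, and includes exon 1. The intronic peak (chr17:35507449-35507728) lies in intron 1 of the main transcript, where an alternative Pou5f1 transcript has its start. The exon 4-5 peak (chr17:35509993-35510629) covers parts of exons 4 and 5, and it also contains the start of Gm19553, an antisense transcript. The authors' table marks the upstream peaks and the promoter peak as having an OCT4 site no more than 1 kb away, and the intronic and exon 4-5 peaks as having none. No peak covers exons 2 and 3. The other protein-coding genes that start in the window, Tcf19 and Cchcr1, have 0 peaks within 1 kb of their starts, and the nearest peak is 6195 and 6471 bp away.

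The sequence between the upstream peaks is shown because it holds the only match to the OCT-SOX composite in the whole window, counting up to 3 mismatches on either strand. The match is on the minus strand with 3 mismatches, begins 1969 bp before the Pou5f1 start, and lies in the 473 bp between the peaks, 157 bp past the end of the distal upstream peak and 302 bp before the proximal one. The forward primer with which the paper measured the Oct4 distal enhancer by ChIP-qPCR also lies in this stretch and begins inside the match. That site is thus between the upstream peaks and not in the distal upstream peak. Capitals mark the match as it reads on the plus strand (GRCm38, chr17:35503956-35504155).
Between the upstream peaks: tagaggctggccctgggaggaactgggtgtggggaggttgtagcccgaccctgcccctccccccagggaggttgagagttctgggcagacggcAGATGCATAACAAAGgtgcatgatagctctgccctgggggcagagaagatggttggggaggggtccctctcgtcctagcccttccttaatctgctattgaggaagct
The promoter is shown from 236 bp to 1 bp before the start because it lies in the peak with the highest level (RefSeq promoter table, GRCm38.p6, chr17:35505782-35506017, plus strand). Capitals mark the GC box GGGCGG, 31 bp before the start, and the nuclear receptor motif AGGTCA, 19 bp before it, both of which are known elements of this promoter that has no TATA box.
Promoter: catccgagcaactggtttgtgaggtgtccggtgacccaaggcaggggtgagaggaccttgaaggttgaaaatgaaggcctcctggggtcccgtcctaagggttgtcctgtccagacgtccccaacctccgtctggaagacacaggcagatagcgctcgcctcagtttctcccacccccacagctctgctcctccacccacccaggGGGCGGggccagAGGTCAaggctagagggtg

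None of the 5 peaks holds the OCT-SOX composite or the octamer ATGCAAAT, searched on both strands. The only octamer in the window begins 3965 bp past the start, at the beginning of exon 4 and 3 bp before the exon 4-5 peak (chr17:35509983-35509990, plus strand). Windows of 473 bp centred on all 26457 peaks that passed the background threshold held the composite in 3.22% of cases and the octamer in 1.95%. Windows of that length centred on the 529 gaps of 300 to 700 bp between adjacent peaks near OCT4 sites held them in 19.5% and 12.5%. The promoter peak holds GGGCGG 3 times and AGGTCA 2 times, and 50.8% and 51.3% of windows of its length centred on those peaks hold them as well. The GC content of the 5 peaks was 47.6%, 51.6%, 60.5%, 52.0% and 57.2% in the order of transcription, with a median of 52.9% over all peaks above the threshold.

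The libraries held 31634480 to 39547452 reads, as recovered from what 1 read is worth in RPKM, and the 5 peaks together held 653 to 1129 reads per library. Single peaks held 50 to 552 reads, a counting error of 14.1% to 4.26%. Peaks took up 6.63% to 7.12% of a library's reads in uninduced cells and 4.05% to 5.15% after IAA. Most peaks of the genome were lower after IAA, and the median peak differed by -0.55 on log2(RPKM + 0.1). IAA replicate 3 had the lowest such share of the 6 libraries and also the lowest value at each of the 5 Pou5f1 peaks. Markers of ESCs had a peak above the threshold within 1 kb of a start in 7 of 8 cases, Dppa3 being the exception. The same held for 1 of 6 trophoblast markers (Tfap2c), 1 of 5 primitive endoderm markers (Gata6) and 2 of 5 germ layer markers (Pax6 and Sox1). Of the ESC markers counted, Esrrb and Fgf4 had 0 peaks within 1 kb of the gene's own start in the promoter comparison below.

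Before IAA, H3K27ac at Pou5f1 was among the highest in the genome. The promoter peak had 12.8, 13.0 and 12.4 RPKM in uninduced replicates 1, 2 and 3, and only 16 of the 26457 peaks had a higher authors' mean. The other 4 peaks had means between 7.41 and 8.58 RPKM, and 152 to 386 peaks were above each of them. The promoter peak was clear of the rest, whereas the intronic, exon 4-5, distal upstream and proximal upstream peaks followed in an order in which each overlapped the next in its library values. All 5 peaks passed the threshold of 0.5 RPKM in either authors' mean. Averaged over the peaks with weights by length, the locus had 9.78 ± 0.167 RPKM (SD, n = 3 IPs). Of the 13769 protein-coding genes with a peak in the gene or within 10 kb, 10 had a higher mean. Of the 1286 genes with at least 5 peaks above the threshold, 2 did.

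The upstream peaks had the largest differences of the 5, with means 45.8% and 46.5% lower after IAA. The distal upstream peak had 7.59, 6.94 and 8.504 RPKM in the uninduced libraries and 4.65, 4.33 and 3.52 RPKM after IAA. Its mean went from 7.68 ± 0.786 to 4.16 ± 0.582 RPKM (SD, n = 3), or 54.2% of the uninduced level. The groups did not overlap. The proximal upstream peak had 7.13, 7.83 and 7.28 RPKM before and 4.63, 3.70 and 3.57 RPKM after IAA. Its mean went from 7.41 ± 0.368 to 3.97 ± 0.581 RPKM (SD, n = 3), or 53.5%, again without overlap. On log2(RPKM + 0.1) the differences were -0.87 (standard error 0.156) and -0.89 (standard error 0.153), close to each other. Among the 3444 peaks with an OCT4 mark and no start within 1 kb, the median difference was -0.74, and 32.9% and 30.5% of them were reduced more than the distal and the proximal upstream peak.

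The promoter was much less reduced than the upstream peaks. The promoter peak had 11.5, 10.99 and 9.51 RPKM after IAA, a mean of 10.7 ± 1.05 RPKM against 12.7 ± 0.334 RPKM before (SD, n = 3), or 84.0%. The groups did not overlap, and the difference on log2(RPKM + 0.1) was -0.25 (standard error 0.132). Of the 1218 peaks with an OCT4 mark and a start within 1 kb, 96.5% were reduced more, and their median difference was -0.64. After IAA, 19 peaks of the genome had a higher authors' mean than the Pou5f1 promoter, so its place near the top was almost as before.

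The intronic peak took a middle place. It had 8.61, 8.61 and 8.52 RPKM before and 5.88, 6.66 and 5.17 RPKM after IAA. The means of 8.58 ± 0.0543 and 5.90 ± 0.743 RPKM (SD, n = 3) differed by -0.54 on log2(RPKM + 0.1) (standard error 0.145), next to the median of all peaks, and the groups did not overlap.

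The exon 4-5 peak was the only one of the 5 whose groups overlapped. It had 8.39, 9.10 and 8.24 RPKM before and 8.71, 8.45 and 5.85 RPKM after IAA. IAA replicates 1 and 2 were within the uninduced range, and only replicate 3 was below it. The mean went from 8.58 ± 0.456 to 7.67 ± 1.58 RPKM (SD, n = 3), a difference of -0.18 on log2(RPKM + 0.1) (standard error 0.158) that is within the spread of the IAA libraries. Without IAA replicate 3 the log2 ratio of the means was 0.0011 in place of -0.16. Measured in rank, 153 peaks were above it before and 45 after IAA. Of the 609 peaks with no start within 1 kb and at least 50% of their bases in exons of coding genes, 93.1% were reduced more, with a median difference of -0.54. The exon 4-5 peak is not in that set, because it contains the start of Gm19553. Of the 11906 peaks with a start within 1 kb and no OCT4 mark, 96.0% were reduced more, with a median difference of -0.52.

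**Figure D1:**
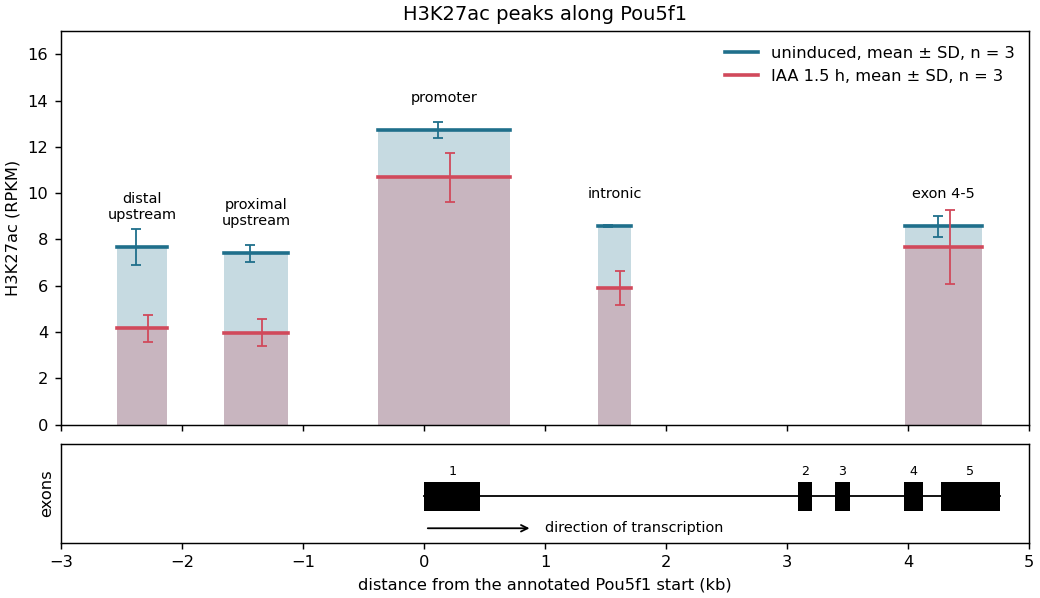
H3K27ac in RPKM at the 5 peaks against the distance in kb from the annotated Pou5f1 start, with exons 1 to 5 of the main transcript as black boxes underneath. Each block spans 1 peak at its real width, lines and bars give the mean ± SD of 3 libraries, and the gap between the uninduced and IAA lines is widest at the upstream peaks and narrow at the promoter and exon 4-5 peaks.

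**Figure D2:**
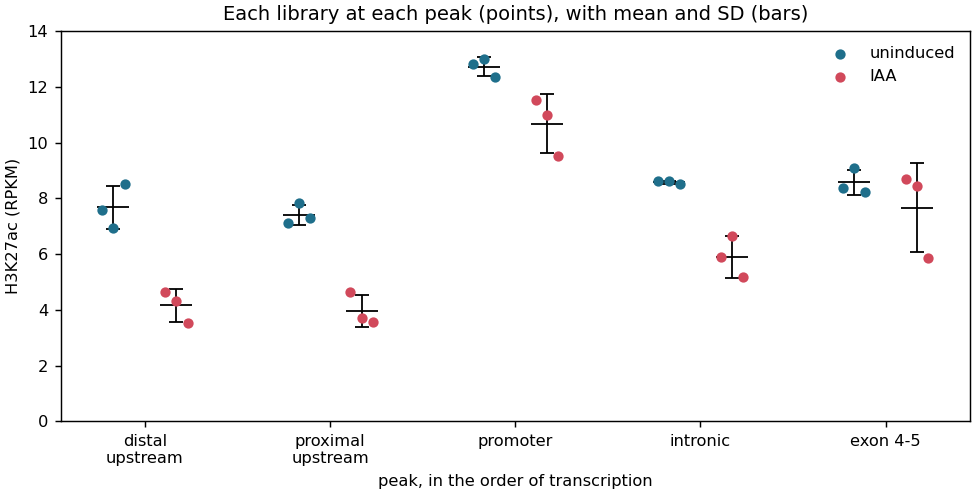
H3K27ac in RPKM of each library (points) at each of the 5 peaks, with the mean and SD of 3 libraries (bars). The uninduced and IAA points are apart at 4 peaks and overlap at the exon 4-5 peak, where 2 IAA libraries lie among the uninduced ones and the third at 5.85 RPKM.

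Of the 5 peaks, 3 (both upstream peaks and the intronic peak) were called lower by limma (Benjamini-Hochberg adjusted p under 0.05) over all 26457 peaks, of which 68.2% were called lower. At 4 of the 5 all IAA values were below all uninduced values, as they were at 71.2% of all peaks. Because the gene was chosen by this contrast, nothing is read from these counts. With every library centred on its median peak, 0 of the 5 were called lower, beside 1.97% of all peaks (520 lower, 144 higher), and the promoter peak was called higher, beside 0.544% of all peaks. With quantile normalization 0 of the 5 were called in either direction, beside 447 of the 26457 peaks called lower and 119 called higher. Relative to the median peak the differences were -0.32 and -0.34 at the upstream peaks, 0.30 at the promoter, 0.01 at the intronic peak and 0.37 at the exon 4-5 peak, the intronic value lying within its standard error of 0.0891. With quantile normalization the promoter and intronic peaks both stood at -0.052 and the exon 4-5 peak at 0.29. The standard errors at the promoter and intronic peaks were then 0.066 and 0.093, so both values lay within them. The promoter was thus above 0 with centring and near 0 with quantile normalization.

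Within each library, the ratio between peaks of the locus does not depend on any factor that scales the whole library. The distal upstream peak stood at 0.592, 0.534 and 0.688 of the promoter peak in the uninduced libraries and at 0.402, 0.393 and 0.370 after IAA. The proximal upstream peak stood at 0.556, 0.602 and 0.589 before and 0.401, 0.336 and 0.376 after. In both cases the groups did not overlap. The intronic peak went from 0.674 ± 0.0137 to 0.553 ± 0.0486 of the promoter peak (SD, n = 3), also without overlap. Of all peaks above the threshold, 90.9% were reduced more than the promoter peak, so a fall relative to it is common. Nothing is read from the separation of these ratios. The exon 4-5 peak had 0.674 ± 0.0232 before and 0.713 ± 0.0848 after (SD, n = 3), with 2 IAA libraries above and 1 below all uninduced ones. The promoter peak held 48.2% ± 0.750 of the reads of the 5 peaks before and 53.1% ± 1.596 after IAA (SD, n = 3).

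**Figure D3:**
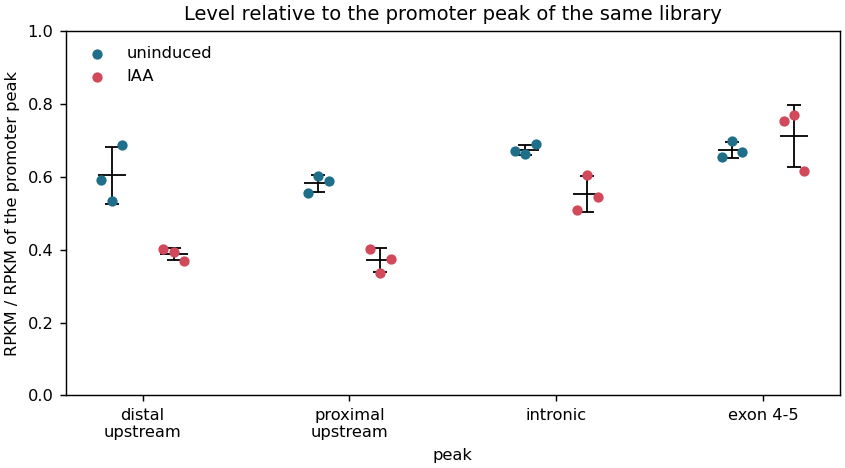
RPKM of 4 Pou5f1 peaks divided by the RPKM of the promoter peak of the same library, for each library (points) with the mean and SD of 3 libraries (bars). The IAA points lie below all uninduced points at the upstream and intronic peaks, whereas at the exon 4-5 peak 2 lie above and 1 below all uninduced points.

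The 2 peaks that hold exons of the main transcript were the least reduced of the 5. With 5 peaks, exon share cannot be told apart from place in the gene. The upstream and intronic peaks contain 0 bases of the exons of the main transcript. Exon 1 makes up 42.8% of the promoter peak, and exons 4 and 5 make up 76.7% of the exon 4-5 peak. Coding bases make up 35.3% and 63.99% of them, and together they hold 791 of the 1056 coding bases of Pou5f1. In a split made after the values were seen, the 3 peaks with no such exon had length-weighted means of 7.62, 7.71 and 7.98 RPKM before and 4.93, 4.59 and 3.92 RPKM after IAA. The log2 ratio of their means was -0.79. The 2 peaks over exons had 11.2, 11.6 and 10.8 RPKM before and 10.5, 10.1 and 8.16 RPKM after, a log2 ratio of -0.23. The exon peaks stood at 1.44 ± 0.0740 times the other 3 in uninduced libraries and at 2.14 ± 0.0553 times after IAA (SD, n = 3), without overlap. Because the split puts the least reduced peaks together, a higher ratio after IAA was fixed in advance, and nothing is read from it. The Oct4 transgenes of these cells carry coding sequence too, and the part of their reads in the promoter and exon 4-5 peaks was not tested.

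**Figure D4:**
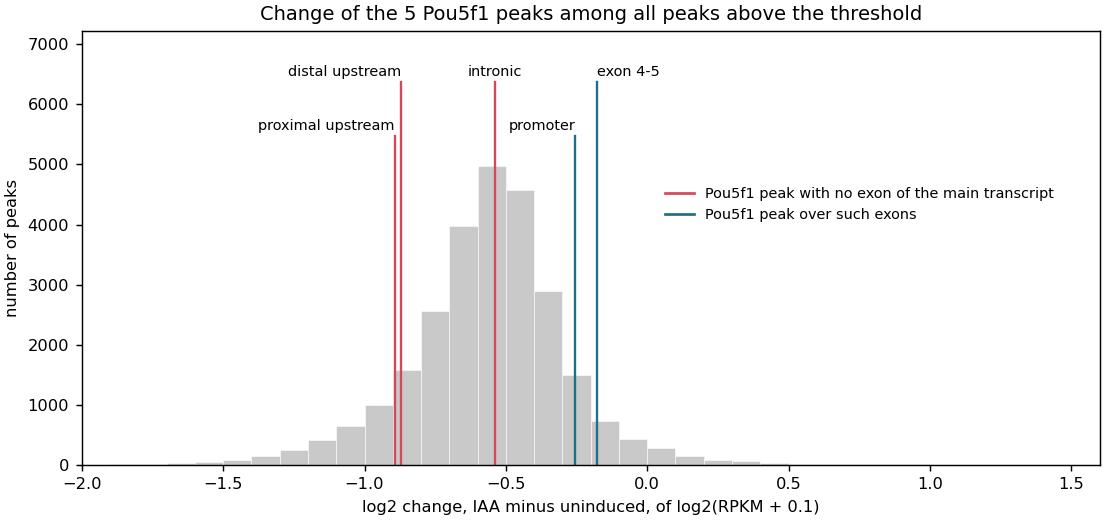
Number of peaks (grey bars, 26457 peaks above the threshold) by the difference between IAA and uninduced libraries on log2(RPKM + 0.1), with the few values below -2 or above 1 placed in the end bars, and the 5 Pou5f1 peaks as vertical lines. The peaks with no exon of the main transcript (red) lie at -0.89, -0.87 and -0.54 and those over its exons (blue) at -0.25 and -0.18, in the right flank of the grey distribution.

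Sequence shared with other places was below the mean of all peaks in 4 of the 5 peaks. Of their 32-base words, 4.49%, 0%, 2.36% and 0% occur elsewhere on the chromosomes from the distal upstream to the intronic peak. In the exon 4-5 peak 39.8% do. Over all peaks above the threshold the mean was 7.54% and the median 0%. The processed pseudogene Gm5712 on chromosome 3 is a copy of the main Pou5f1 transcript with 85.3% identity over 1385 aligned bases, and a deposited H3K27ac peak lies on it (chr3:129433891-129434705). It had 0.856 ± 0.262 RPKM before and 0.764 ± 0.163 RPKM after IAA (SD, n = 3), from 18 to 29 reads per library, with a difference of -0.13 on log2(RPKM + 0.1) (standard error 0.270) that is within the spread between libraries. This level is far below those at Pou5f1 itself. Reads were aligned with the default settings of Bowtie2, which report 1 alignment per read, so a read that fits several places equally well is given to 1 of them.

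Over the whole locus, the length-weighted mean was 9.71, 9.97 and 9.66 RPKM in the uninduced libraries and 8.20, 7.80 and 6.41 RPKM after IAA. The mean went from 9.78 to 7.47 ± 0.938 RPKM (SD, n = 3), or 76.4%, a log2 ratio of -0.39, and every IAA library was below every uninduced one. Relative to the median peak of its library, the locus stood at 1.995 ± 0.0414 before and 2.18 ± 0.0329 after IAA on the log2 scale (SD, n = 3), 0.18 higher. This direction turned with quantile normalization, to -0.045, and over the 3 peaks free of main-transcript exons, to -0.22. The nearest peaks outside the window lie 14637 bp before the gene and 32101 bp after it. They are low beside the 5 peaks, with means of 1.98 and 2.65 RPKM before and 1.46 and 1.77 RPKM after IAA, and differences of -0.41 (standard error 0.192) and -0.59 (standard error 0.199) on log2(RPKM + 0.1).

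Set beside the other genes of the pluripotency network, Pou5f1 kept the highest H3K27ac. Of 25 listed genes, 22 had a peak in the gene or within 10 kb, and Dppa3, Lefty1 and Tcl1 had none. Pou5f1 had the highest mean of the 22, ahead of Tbx3 (7.52 ± 0.465 RPKM) and Sall4 (7.39 ± 0.559 RPKM, SD, n = 3), both regulators of ESC self-renewal. After IAA it was again the highest, followed by the nuclear receptor gene Esrrb at 4.05 ± 0.804 RPKM and by Nanog, the homeobox factor of naive pluripotency, at 3.78 ± 0.309 RPKM (SD, n = 3). In all 21 other genes every IAA library was below every uninduced one, as in 78.8% of all protein-coding genes with a peak.

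The log2 ratio of the means at Pou5f1 was the smallest of the 22, which is the property by which the gene was chosen. The median of the 21 others was -0.94. The next smallest was at Klf5, a Krüppel-like factor of the self-renewing state, with 2.92 ± 0.131 RPKM before and 1.92 ± 0.228 RPKM after IAA (SD, n = 3), a log2 ratio of -0.60. The largest was at Nr0b1, which encodes the orphan receptor DAX1, at -1.87 and with 1 peak. Over the 3 Pou5f1 peaks with no exon of the main transcript 16 of the 21 others had a lower ratio than the -0.79 of Pou5f1, whereas over all 5 peaks 21 did. All protein-coding genes with a peak had a median log2 ratio of -0.52, and 81.0% of them were lower than the Pou5f1 locus with all 5 peaks and 7.18% lower than those 3 peaks. The other genes kept all their peaks in this comparison. The 2 exon peaks were the least reduced of the 5 and include the promoter peak, so a lower ratio without them was fixed in advance. Nothing is read from the change in standing.

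**Figure D5:**
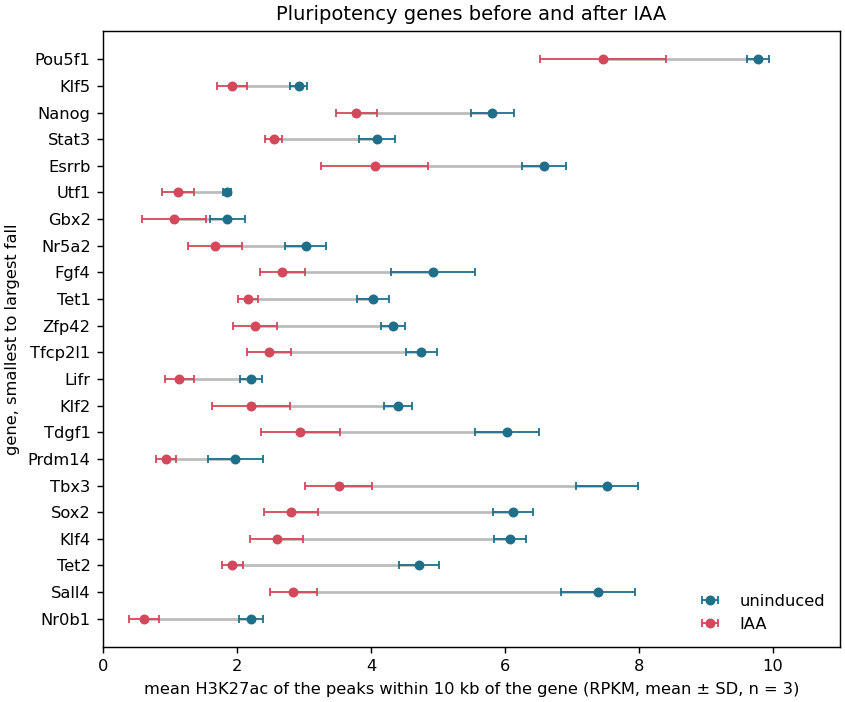
Length-weighted mean H3K27ac in RPKM of the peaks within 10 kb of 22 pluripotency genes, mean ± SD of 3 libraries, ordered from the smallest to the largest log2 ratio. Pou5f1 goes from 9.78 to 7.47 RPKM and is the highest of the 22 in both conditions.

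The promoters of these genes were also compared with the rest of their loci, without a test. In 13 genes at least 1 peak lay within 1 kb of the gene's own start and at least 1 other elsewhere. The promoter peak of Pou5f1 had a log2 ratio 0.28 above that of its other 4 peaks. In the 12 others this value ran from -0.77 at Tfcp2l1, a transcription factor of the LIF response, to 0.65 at Utf1, a chromatin-bound factor of ESCs, with a median of -0.07. It was above 0 in 5 of the 12, and above that of Pou5f1 in 2, Tbx3 and Utf1.

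The genes whose course over the 6 libraries was most like that of Pou5f1 were found by distance. Each gene's mean was taken as log2 RPKM and centred on its own uninduced mean, and the Euclidean distance to Pou5f1 was computed for 1284 genes with at least 5 peaks above the threshold and none shared with it. The closest were Acbd4, for an acyl-CoA binding protein, at a distance of 0.079, Anks1 at 0.092, Calr, for the endoplasmic reticulum chaperone calreticulin, at 0.097, the histone H3 gene Hist1h3g at 0.10 and the sialyltransferase gene St3gal3 at 0.10. Their uninduced means of 2.05 to 4.56 RPKM were below that of Pou5f1, and their log2 ratios lay between -0.42 and -0.36. The distance rests mostly on the size of this ratio, by which Pou5f1 was chosen, so the absence of the listed genes from the 5 follows from that choice.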

How the data were processed

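H3K27ac ChIP-seq libraries from 3 uninduced and 3 IAA-treated IPs were analyzed. Per the paper's methods and the labels, the authors aligned reads with Bowtie2 2.3.4.3 (default parameters) to GRCm38 (mm10), deduplicated them in SAMtools, called peaks with MACS2 on uninduced reads, so that regions acetylated only after IAA have no peak, and computed RPKM with DiffBind. The deposited RPKM values were used, with the pooled columns as the authors' means. No input or spike-in was used here. The labels do not say whether IPs came from separate cultures, so errors measure the spread between IPs.

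Peaks whose authors' mean reached 0.5 RPKM in a condition were fitted on log2(RPKM + 0.1), a scale that shrinks differences at low peaks, with limma 3.58.1 in R 4.3.3 (trend and robust) and Benjamini-Hochberg adjustment. The fit was checked on simulated data, where the size of the changes put in was recovered but most of them were not called. A peak that is not called may therefore still differ. Gene and locus means were weighted by peak length and compared as log2 ratios with nothing added. Annotation was GENCODE vM21. Motifs were searched on both strands, and copies of the transcript with blastn 2.17.0. Alternatives were other pseudocounts, thresholds, windows and scalings, the replicate number as a block, and leaving out each library.

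The gene, the lists and the tests were chosen with earlier results of these data known. Genes named in the text are those that start in the window, the listed genes next to Pou5f1 or with the largest and smallest log2 ratios or the highest levels, and the 5 nearest in course. Esrrb, Nanog, Tfcp2l1 and Utf1 were named after their values were seen. Transcript copies, the exon split, the promoter comparison and the sequence between the upstream peaks were examined after the values were seen.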

Additional observations from a re-analysis of the deposited data

How the results depend on the processing

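With 3 libraries a group and 50 reads in the weakest peak value, small differences between peaks are beyond these data. The log2 ratio of the locus stayed below 0 in all 15 alternatives. It was -0.045 with quantile normalization, which gives every library the same distribution of values and so removes more than a common shift. With only the 3 peaks free of main-transcript exons it was -0.79. Relative to the median peak, the value of 0.18 was 0.032 with 1 added to each RPKM, 0.10 as a plain mean over peaks, 0.13 without the exon 4-5 peak, 0.32 over the gene body alone, -0.045 with quantile normalization and -0.22 over the 3 peaks free of exons. The difference between Pou5f1 and the median of the other listed genes was 0.55, and 0.34 with 1 added to each RPKM. Leaving out 1 library at a time gave -0.46 to -0.29 for the locus, 0.16 to 0.20 relative to the median peak and 0.52 to 0.59 for the difference from the listed genes. For the exon 4-5 peak it gave -0.26 to 0.0011 as a log2 ratio, and -0.28 to 0.0022 by limma, the highest of both without IAA replicate 3. The number of Pou5f1 peaks called lower was 3, and 0 with centring on the median peak or quantile normalization, which leave 664 and 566 peaks called in all in place of 18064. Leaving out libraries gave 3 to 4 Pou5f1 peaks and 10388 to 19631 peaks in all, the lowest without uninduced replicate 1. With centring the differences were above 0 at the promoter (0.30), intronic (0.014) and exon 4-5 (0.37) peaks, and with quantile normalization at the exon 4-5 peak (0.29). The replicate numbers share no source in the labels, and same-numbered libraries had correlations of -0.014, -0.091 and -0.061 in their deviations from the group means. With the replicate number as a block, 18916 peaks and 4 of the 5 Pou5f1 peaks were called, the promoter peak with the same difference of -0.25. The causes of these shifts were not tested beyond what each alternative is built to do.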
